A study of Fukomys damarensis and Heterocephalus glaber and Mus musculus with 160 samples.

Results

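The guinea pig (Cavia porcellus) H3K4me1 libraries of liver and heart were compared by the position, width and enrichment of their peaks. They were chosen by title, as every peak list made with the H3K4me1 antibody from guinea pig liver (3 lists) or guinea pig heart (3 lists), which is 6 of the 116 samples with a peak list in a series of 160 samples. The series mapped regulatory chromatin of liver and heart in 4 rodent species by chromatin immunoprecipitation and sequencing. All 6 libraries came from wild-type adult males of 2.3 months, with no treatment named. The animals labelled GuineaPig7, GuineaPig8 and GuineaPig9 (animals 7, 8 and 9 below) each gave a liver and a heart, so the tissues share their animals and each list is 1 organ of 1 animal. Livers had been perfused with saline and both organs were cut up whole after clots were taken out of the ventricles, so each list averages over the hepatocytes, cardiomyocytes, vessel, blood and connective tissue cells that these organs hold. In such bulk samples a mark in fewer cells and a weaker mark in each cell cannot be told apart. No annotation of the guinea pig build was used, so regions are given by scaffold and position and by the other histone marks found there, and the labelled tissues were not checked against genes. No sequence of this build was used either.

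H3K4me1 is 1 methyl group on lysine 4 of histone H3, placed mainly by the methyltransferases MLL3 (KMT2C) and MLL4 (KMT2D). It marks enhancers, the distal elements that raise transcription of their genes, both while they are active and while they are only primed. Acetylation of lysine 27 (H3K27ac) is found at active enhancers and active promoters, and trimethylation of lysine 4 (H3K4me3) at promoters. At an active promoter H3K4me1 typically lies on the flanks of the H3K4me3 peak, where the methylation of lysine 4 is less complete. Enhancers differ between tissues more than promoters do, which makes H3K4me1 a usual map for comparing organs of 1 animal.

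Liver lists were made of wider peaks than heart lists and covered more of the genome. Liver gave 136264 peaks in animal 7, 132064 in animal 8 and 119768 in animal 9, and heart gave 90479, 106576 and 130362 in the same order. Heart of animal 9 alone among the hearts had more peaks than a liver, that of its own animal. The number of peaks was higher in liver by 0.26 on the log2 scale (two-sided exact permutation p = 0.2, n = 3 and 3), and in 2 of 3 animals. It was 0.13 without heart of animal 7 and 0.66 at a −log10 q of at least 4. A comparison of 3 libraries against 3 cannot give a two-sided p below 0.1, so no single value of this kind can pass a threshold of 0.05.

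Bases covered by liver peaks came to 138.958, 129.389 and 102.816 Mb in animals 7, 8 and 9, against 62.8059, 65.7239 and 89.5818 Mb in heart. Every liver covered more than every heart, by 0.77 on the log2 scale (two-sided exact permutation p = 0.1, the smallest possible, n = 3 and 3). The median peak was 660, 655 and 596.5 bases wide in liver and 488, 434 and 493 bases in heart. The groups did not overlap, and the difference was 165.5 bases (two-sided exact permutation p = 0.1, n = 3 and 3). With the 90479 peaks of highest −log10 q of each list it was 333 bases. Peaks over 1 kb made up 31.5%, 30.9% and 25.2% of the liver lists but 16.1%, 12.8% and 16.0% of the heart lists. The shortest peaks the lists allow were alike, 282 to 289 bases in liver and 254 to 294 in heart, and the lists differed most at the wide end.

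The median fold enrichment, the peak caller's linear ratio over background, was 5.16, 4.56 and 4.80 in liver and 4.77, 4.67 and 4.53 in heart, and the 2 ranges overlapped. Wide peaks were also the more enriched ones within a list, with a Spearman correlation of width and fold of 0.64 to 0.71 in liver and 0.55 to 0.56 in heart (across peaks of 1 list, as a description). The share of peaks with a −log10 q of at least 4 was 79.9% to 83.6% in liver and 56.9% to 65.4% in heart. Heart lists thus held a larger share of peaks near the calling threshold. Sequencing depth is unknown from a peak list, and its part in the width and number of peaks was not tested. The library codes of liver and heart fall in different ranges and heart of animal 9 carries a different letter code, so tissue and any difference in library preparation cannot be told apart. With heart of animal 9 left out, all remaining codes share their letters and the log2 difference was 0.40 for peak number and 0.93 for bases covered.

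Peak position separated the tissues and did not group the organs of an animal. The Jaccard index (bases that 2 lists share as a fraction of all bases covered by 1 or both of them) was 0.576 on average between livers (0.556 to 0.602 over 3 pairs) and 0.393 between hearts (0.373 to 0.429 over 3 pairs). Liver and heart of the same animal gave 0.175 (0.156 to 0.185, 3 pairs), and liver and heart of different animals 0.177 (0.153 to 0.204, 6 pairs). Every within-tissue pair lay above every pair across tissues, while the same-animal and different-animal ranges overlapped. The mean within a tissue exceeded that across tissues by 0.308 (one-sided exact permutation p = 0.1, the smallest possible with 3 libraries a tissue). With heart of animal 9 left out it was 0.368. Of the 4447 regions found in exactly 1 liver and 1 heart list, 24.1% came from the same animal, against 25.2% that the numbers of such regions per list would give.

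**Figure D1:**
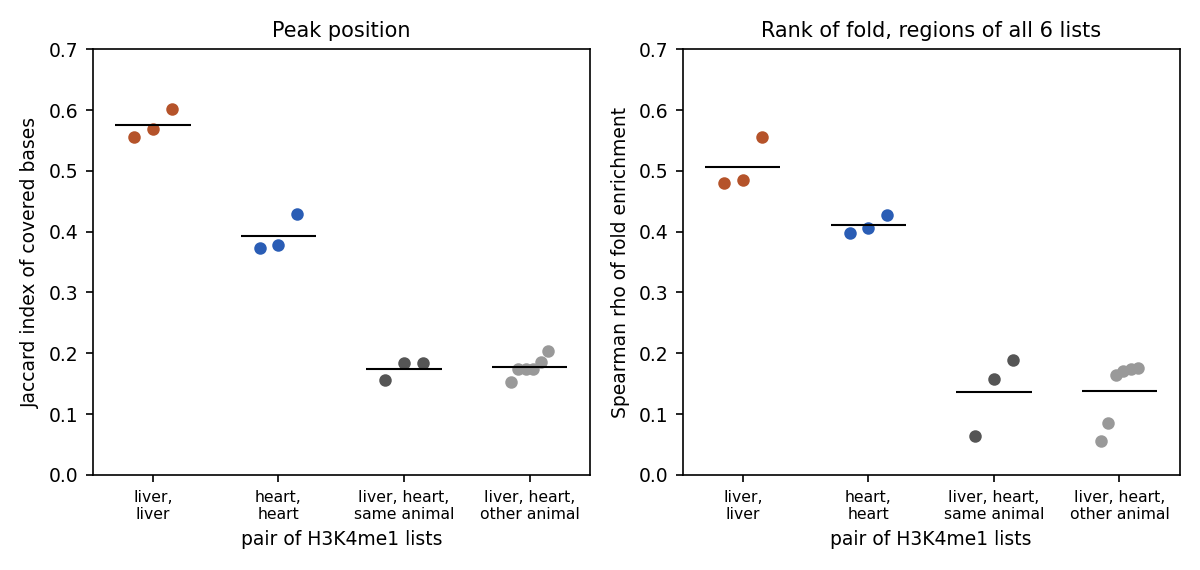
Similarity of pairs of guinea pig H3K4me1 lists, with 1 point per pair and a line at the mean of each kind of pair. Left, the Jaccard index of covered bases; right, the Spearman correlation of fold over the 20354 regions with a peak in all 6 lists; on both axes pairs within liver lie highest, then pairs within heart, and pairs across tissues lie lowest whether or not they share the animal.

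Overlapping peaks of the 6 lists were joined into 211976 regions. A region counted as one of both tissues when at least 2 liver and at least 2 heart lists had a peak there, and as one of a single tissue when at least 2 lists of that tissue and none of the other had one. Both tissues shared 33186 regions (15.7%), of which 20354 (9.60% of all) had a peak in all 6 lists. Liver alone held 45690 regions (21.6%) and heart alone 26839 (12.7%). A further 84496 regions (39.9%) came from 1 list each, and 21765 were mixed, for example 2 liver lists and 1 heart list. Of the liver-only regions 30160 were found in all 3 livers, and of the heart-only regions 11586 in all 3 hearts.

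The single-list regions were uneven. Heart lists supplied 50575 of them and liver lists 33921, and heart of animal 9 supplied 30595 by itself. The heart-only count was the class that moved with it, to 16596 without heart of animal 9 and to 17604 without heart of animal 8. It was 15932 when only peaks with a −log10 q of at least 4 were kept. The liver-only count exceeded the heart-only count in each of these 3 settings.

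Counted as peaks, 37.3%, 37.4% and 44.2% of the liver lists of animals 7, 8 and 9 lay in regions of both tissues, against 55.8%, 52.7% and 42.6% of the heart lists. Heart of animal 9 lay below liver of the same animal, and the other hearts lay above every liver. The liver share was lower by 10.7 percentage points (two-sided exact permutation p = 0.2, n = 3 and 3), and by 15.9 points without heart of animal 9. The difference, liver minus heart, was −6.25 points with equal numbers of peaks and −17.2 at a −log10 q of at least 4. Peaks in liver-only regions made up 37.7%, 39.0% and 40.1% of the liver lists. Peaks in heart-only regions made up 25.7%, 24.8% and 20.6% of the heart lists, all below the livers. With a match counted only where 50% of the shorter interval overlapped, 28.5% to 32.3% of liver peaks and 40.5% to 47.9% of heart peaks were matched in the other tissue, and the tissues no longer overlapped.

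**Figure D2:**
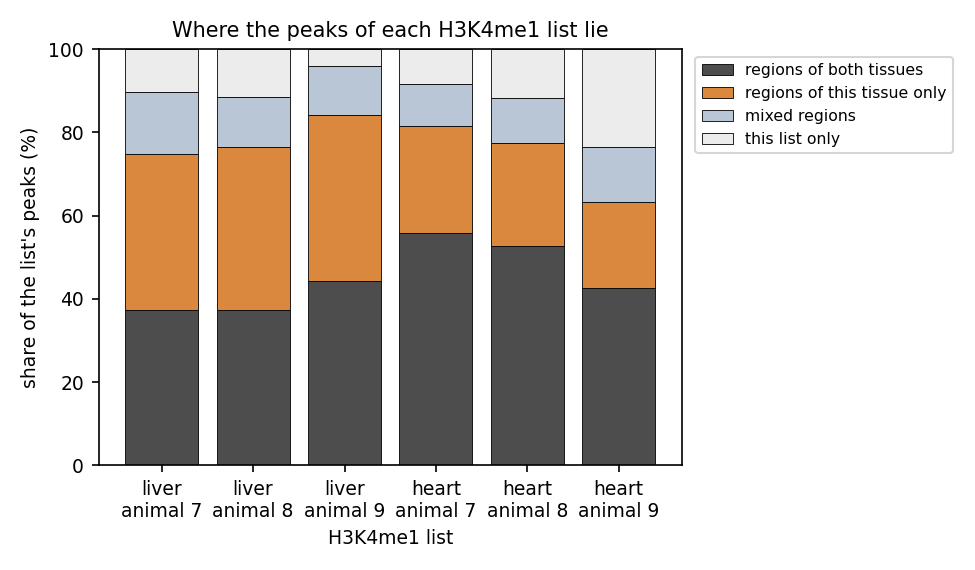
Share of each list's H3K4me1 peaks (vertical axis, percent) that lie in regions of both tissues, of that tissue alone, in mixed regions, or in no other list. Hearts of animals 7 and 8 have the largest shares in both-tissue regions (55.8% and 52.7%), livers the larger shares in 1-tissue regions, and heart of animal 9 the largest share (23.5%) found in no other list.

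Regions of both tissues were long, 1991 bases at the median and 2501.5 where all 6 lists had a peak, against 1018 bases for liver-only and 771 for heart-only regions. Joined regions grow with the number of lists in them, so widths were also read within each list. Liver peaks in both-tissue regions were 902, 832 and 714 bases wide at the median, and those in liver-only regions 677, 694 and 559. The heart values were 562, 511 and 625 bases in both-tissue regions and 457, 420 and 538 in heart-only regions. In all 6 lists the peaks of both-tissue regions were the wider ones, by a ratio of 1.27 ± 0.067 in liver and 1.203 ± 0.036 in heart (SD, n = 3 each, two-sided exact sign-flip p = 0.25, the smallest 3 libraries allow). With classes set from 500-base windows centred on the summits the ratios were 1.18 and 1.16. A both-tissue region needs peaks in more lists than a 1-tissue region, and wide peaks meet others more easily. The part of this class rule in the ratios was not tested.

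Enrichment followed the same order. The median peak of a both-tissue region stood at the 61.8th, 58.4th and 57.6th percentile of fold in its liver list, and that of a liver-only region at the 52.1st, 54.1st and 47.6th. In heart the percentiles were 56.6, 57.6 and 62.8 for both-tissue and 45.3, 47.5 and 53.5 for heart-only regions. The gap was 7.98 ± 3.21 percentile points in liver and 10.2 ± 0.99 in heart (SD, n = 3 each), and it was positive in each list (two-sided exact sign-flip p = 0.25). With summit windows it was 6.01 and 8.98 points. Strong peaks pass the calling threshold in more lists, so the classes are not independent of fold, and the part of the class rule in this gap was not tested. Peaks found in no other list were weakest, at the 23.4th to 26.6th percentile in liver and the 34.02nd to 34.73rd in heart, and were 302 to 365 bases wide at the median.

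By deciles of fold, the share of liver peaks in both-tissue regions went from 34.8% ± 5.25 in the lowest decile to 60.5% ± 5.71 in the highest (SD, n = 3), and in heart from 45.6% ± 9.11 to 76.1% ± 3.16. Tissue-restricted peaks were not the strongest class. The liver-only share was 37.0% in the lowest decile, 43.9% in the seventh and 30.4% in the highest, and the heart-only share was 24.1% in the lowest and 14.8% in the highest. Peaks of a single list made up 0.051% of the highest decile in liver and 0.681% in heart. Median width went from 371 to 1835 bases across the liver deciles and from 351 to 1213 across the heart deciles.

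**Figure D3:**
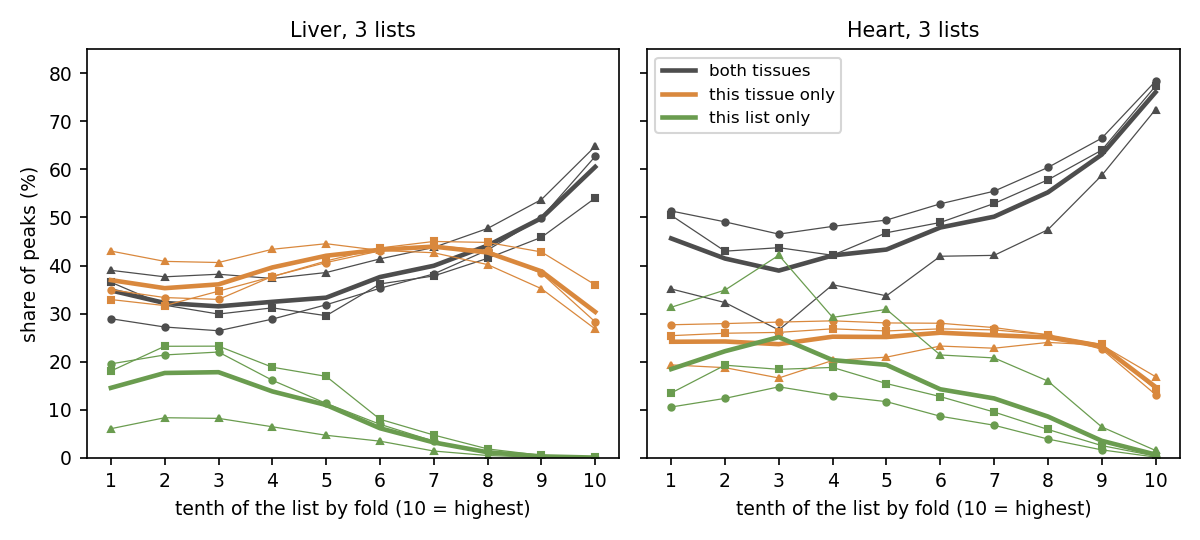
Share of H3K4me1 peaks (vertical axis, percent) in both-tissue regions, regions of that tissue alone and regions of that list alone, by decile of fold within the list (horizontal axis). Thin lines are the lists of animals 7 (circles), 8 (squares) and 9 (triangles) and thick lines their means; the both-tissue share is highest in decile 10, at 60.5% in liver and 76.1% in heart.

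Of the regions holding a list's top decile of peaks, 48.4% ± 5.51 of the liver ones and 62.5% ± 4.21 of the heart ones (SD, n = 3) had a peak in all 6 lists. Among those found in all 6 lists, rank was higher in the same tissue than in the other. In the other animals' lists of the same tissue they stood at the 91.1st percentile of fold for liver and the 90.8th for heart. In the lists of the other tissue they stood at the 83.1st and the 82.2nd. They were again in the top decile in 54.0% (liver) and 52.8% (heart) of same-tissue lists, against 36.7% and 36.1% of lists of the other tissue.

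Tissue-restricted H3K4me1 went with tissue-restricted acetylation. Among liver-only H3K4me1 regions, 53.1% overlapped H3K27ac peaks in at least 2 liver lists and 9.40% in at least 2 heart lists. Among heart-only regions the shares were 45.0% in heart and 9.72% in liver. Regions of both tissues carried H3K27ac at 72.6% in liver and 69.6% in heart, and at 60.2% in both. No H3K27ac peak of any of the 6 acetylation lists touched 33.96% of liver-only, 37.4% of heart-only and 11.4% of both-tissue regions. The share was 44.1% over all regions and 67.8% over regions of a single list. An overlap of 1 base counted, and both-tissue regions were the longest class at the median. H3K27ac peaks covered 98.3 to 110.2 Mb per list in liver and 62.5 to 80.0 Mb in heart. The part of this difference in the shares was not tested. H3K4me1 without acetylation is the state usually called a primed enhancer, but regions that touch H3K4me3 were not taken out of these shares.

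Animal by animal, liver peaks in liver-only regions overlapped an H3K27ac peak of the same liver in 53.7%, 55.1% and 57.8% of cases, and of the same animal's heart in 8.53%, 8.05% and 5.93%. Heart peaks in heart-only regions overlapped heart H3K27ac in 46.9%, 52.9% and 40.9% and liver H3K27ac in 11.6%, 6.09% and 9.92%. The groups lay far apart in each animal, by 48.0 ± 3.47 points in liver and 37.7 ± 8.22 in heart (SD, n = 3; two-sided exact sign-flip p = 0.25). At both-tissue regions liver peaks overlapped liver H3K27ac in 64.3%, 60.8% and 63.8% and heart H3K27ac in 58.2%, 54.9% and 45.6%, so each liver value lay above each heart value. Heart peaks there overlapped heart H3K27ac in 58.5%, 57.2% and 48.0% and liver H3K27ac in 60.2%, 53.4% and 57.6%, and these ranges overlapped. The liver H3K27ac lists covered more bases, as given above, and the part of this in these shares was not tested.

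Peaks of both-tissue regions were acetylated more often than those of the organ alone, by 7.47 ± 2.77 points in liver and 7.68 ± 3.74 in heart (SD, n = 3; two-sided exact sign-flip p = 0.25 each, positive in 3 of 3 animals). The size of these gaps rested on single libraries. The heart gap was 3.38 points without heart of animal 7 and 3.83 without heart of animal 9, where the 2 remaining hearts differed in sign, and the liver gap was 3.68 points without liver of animal 7. When the summit of the H3K4me1 peak, and not any base of it, had to lie in an H3K27ac peak, the liver gap was 1.23 points (p = 0.75 by the same exact sign-flip test) and the heart gap 4.55. The heart gap was 4.22 points at a −log10 q of at least 4 and 5.00 with summit windows. Peaks seen in a single list overlapped H3K27ac of their own organ in 22.1% ± 4.23 (liver) and 22.8% ± 4.98 (heart). Acetylation also followed enrichment, from 35.8% of the lowest decile of fold to 87.6% of the highest in liver, and from 35.8% to 79.8% in heart.

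**Figure D4:**
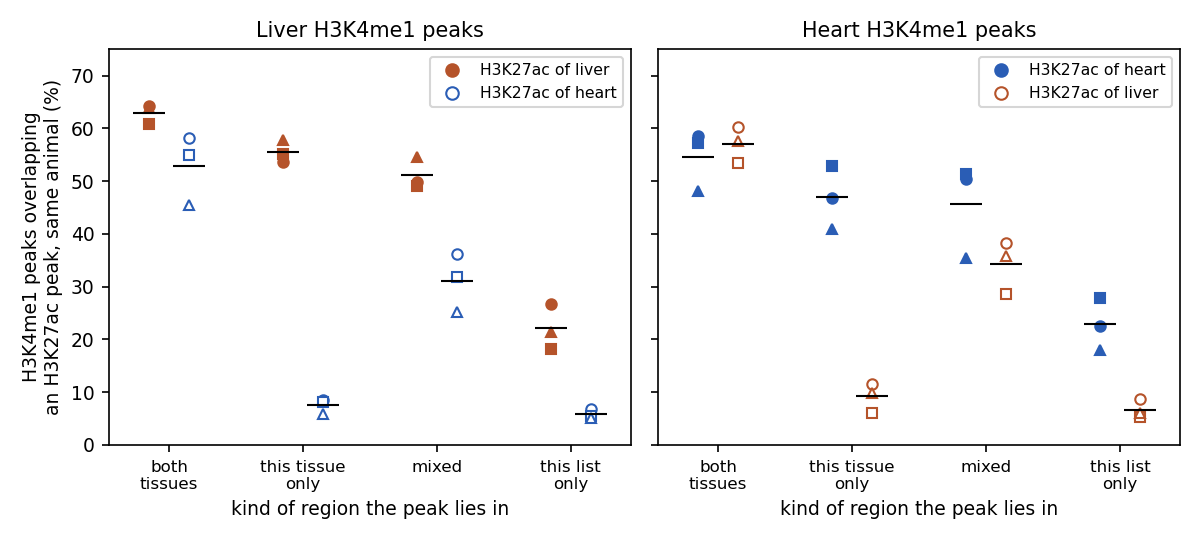
Share of liver (left) and heart (right) H3K4me1 peaks that overlap an H3K27ac peak of the same animal (vertical axis, percent), by the kind of region. Circles, squares and triangles are animals 7, 8 and 9, filled for acetylation of the peak's own organ and open for the other organ, with lines at the means; in regions of 1 tissue every open point lies below 12% and every filled point above 40%, while in both-tissue regions all points lie between 45.6% and 64.3%.

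Promoter marks touched a larger share of both-tissue regions than of 1-tissue regions. H3K4me3 of either tissue overlapped 47.1% of both-tissue regions and 53.5% of those in all 6 lists, against 10.5% of liver-only and 2.54% of heart-only regions. The median distance from a region to the nearest H3K4me3 region was 1.456 kb for both-tissue, 23.7 kb for liver-only and 29.7 kb for heart-only regions. Both-tissue regions were also longer at the median, 1991 bases against 1018 and 771. The part of length in these shares and distances was not tested. Away from H3K4me3, 49.4% of liver-only regions carried H3K27ac in liver and 3.02% in heart, and 43.9% of heart-only regions carried it in heart and 8.57% in liver. The larger bases covered by the liver H3K27ac lists apply here too.

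Most of the liver-only H3K4me1 regions that did touch H3K4me3 did not carry H3K4me3 in liver alone. At liver-only H3K4me1 regions, H3K4me3 was found in 6.58% ± 1.32 per liver list and 7.83% ± 0.280 per heart list (SD, n = 3 each). By region, 2112 of the liver-only H3K4me1 regions had H3K4me3 in at least 2 lists of both organs, 1001 had it in heart and in no liver list, and 802 in liver and in no heart list. At heart-only regions the counts were 132, 423 and 35 in the same order. Heart H3K4me3 lists were the longer ones, with 21481 to 24629 peaks against 14782 to 16530 in liver.

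H3K4me1 reached promoters more often in liver than in heart. Of 12764 H3K4me3 regions present in at least 2 lists of each organ, 94.3%, 91.5% and 87.5% overlapped H3K4me1 in the livers of animals 7, 8 and 9, against 66.2%, 69.0% and 74.3% in the hearts. Every liver lay above every heart, by 21.3 points (two-sided exact permutation p = 0.1, n = 3 and 3). The gap was 19.4 points with an equal number of peaks per list and 14.3 points when a summit within 2000 bases of the promoter's centre was asked for. The larger bases covered by the liver lists move with this gap, and their part in it was not tested. By at least 2 lists a tissue and none of the other, 1202 of these regions (9.42%) had H3K4me1 in liver alone and 66 (0.517%) in heart alone.

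In both organs H3K4me1 summits were less frequent at the centre of the promoter than beside it. Around the H3K4me3 summits of the same animal and organ, H3K4me1 summits were most frequent 600 to 800 bases away in all 6 lists. There they numbered 133, 137 and 124 per 1000 H3K4me3 peaks and 200-base bin in liver, and 77.3, 84.9 and 88.5 in heart. These rates divide by the H3K4me3 lists, which held 14782 to 16530 peaks in liver and 21481 to 24629 in heart. Undivided counts of the organs overlapped. From −800 to −600 bases they were 2205, 2138 and 1847 in livers 7, 8 and 9 and 1685, 2128 and 2062 in hearts. In the innermost bins they numbered 50.8, 38.5 and 33.8 in liver and 38.4, 44.2 and 55.2 in heart. The ratio of flank to centre was 2.63, 3.56 and 3.66 in liver against 2.01, 1.92 and 1.60 in heart, and the organs did not overlap in it, though no test was made. H3K4me1 peaks covered the H3K4me3 summit itself for 26.0%, 16.2% and 13.1% of liver H3K4me3 peaks and 12.7%, 13.1% and 18.8% of heart H3K4me3 peaks.

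**Figure D5:**
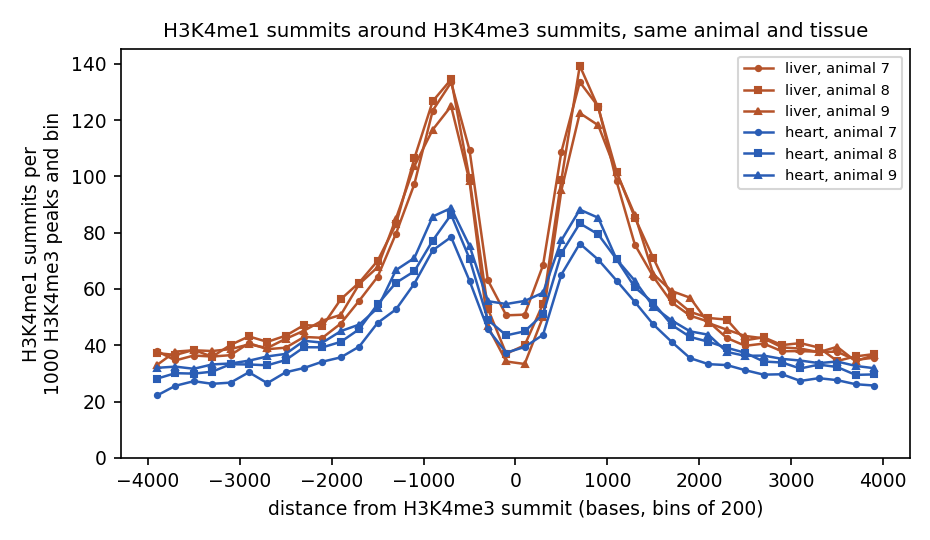
H3K4me1 summits per 1000 H3K4me3 peaks and 200-base bin (vertical axis) by distance from the H3K4me3 summit of the same animal and organ (horizontal axis, bases), with 1 line per list. All 6 lines dip at the centre and are highest 600 to 800 bases away, and the 3 liver lines reach 124 to 137 there against 77.3 to 88.5 for the heart lines. The rates divide by H3K4me3 lists that were longer in heart (21481 to 24629 peaks) than in liver (14782 to 16530).

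Where all 6 lists had a peak, its strength still carried the tissue. Over these 20354 regions the rank of fold correlated at a Spearman rho of 0.480 to 0.555 between livers and 0.399 to 0.427 between hearts, but at 0.064 to 0.189 between organs of the same animal and 0.055 to 0.176 between organs of different animals. Widths were more alike than folds, with a rho of 0.873 to 0.882 between livers, 0.761 to 0.786 between hearts and 0.383 to 0.584 across organs. These correlations are across regions of the same lists, which are not independent replicates, and are given as a description. The covered length of such a region was 1784.5, 1532 and 1362 bases at the median in the livers of animals 7, 8 and 9 and 1037, 1037 and 1255 bases in the hearts. Within an animal, 78.1%, 70.2% and 57.5% of the regions were wider in liver, so the excess was largest in animal 7 and smallest in animal 9.

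Ranks of fold within a library, turned into normal scores, were compared between 3 livers and 3 hearts with limma across the 20354 regions. After Benjamini-Hochberg adjustment 664 regions (3.26%) ranked higher in liver and 911 (4.48%) higher in heart, and 2321 and 2396 had an unadjusted p below 0.05 in those directions. With the animal as a block the counts were 742 and 989, of which 653 and 907 were the same regions. Liver and heart scores did not overlap in 641 of the 664 and 895 of the 911, beside 3899 of the 18779 regions not called. Leaving out any 1 library, which leaves 2 of its tissue, gave 272 to 458 regions ranked higher in liver and 543 to 697 higher in heart. The counts higher in liver were 272, 384 and 397 without liver of animal 7, 8 or 9 and 373 without heart of animal 7. Those higher in heart were 569 without liver of animal 7 and 543, 594 and 592 without heart of animal 7, 8 or 9. At a −log10 q of at least 4 the counts were 221 and 377, over 12822 regions.

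The regions ranked higher in an organ were less often promoters than the rest. H3K4me3 overlapped 37.7% of those ranked higher in liver, 26.7% of those ranked higher in heart and 55.4% of those not called. Width moved with rank: the covered length was larger in liver by 2.10 on the log2 scale at the median for regions ranked higher in liver, smaller in liver for those ranked higher in heart, at −1.44, and larger in liver by 0.50 for those not called.

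H3K27ac lists, which played no part in the ranking, were read at these regions. Where H3K4me1 ranked higher in liver, 88.0% ± 0.743 of regions overlapped H3K27ac in a liver list and 62.5% ± 4.83 in a heart list (SD, n = 3 each), and where it ranked higher in heart the shares were 77.4% ± 6.02 in liver and 93.2% ± 1.49 in heart. At regions not called they were 79.4% ± 1.38 and 76.2% ± 4.67. Acetylation in at least 2 liver lists and no heart list was seen at 128 of the regions ranked higher in liver (19.3%) and at 7 of those ranked higher in heart. The reverse held at 97 of the regions ranked higher in heart (10.6%) and at 19 of those ranked higher in liver. Over all 20354 regions, 1145 (5.63%) had acetylation in liver and no heart list by this rule, and 983 (4.83%) the reverse. At regions not called the shares were 5.38% and 4.62%.

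Among regions with H3K27ac in all 6 lists, the percentile of H3K27ac fold was higher in liver than in heart by 13.4 ± 3.33 points over 306 regions ranked higher in liver (SD over 3 animals). It was −17.4 ± 5.59 points over 589 regions ranked higher in heart and −0.375 ± 0.538 over 10982 regions not called. By region, H3K27ac ranked higher in liver at 73.2%, 18.8% and 50.3% of them. These values cover only the called regions with H3K27ac in all 6 lists, 306 of 664 and 589 of 911. Among the 589, 111 had H3K27ac ranked higher in liver. The marks share animals, organs and input libraries, though not the immunoprecipitated library.

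Examples were named by a rule on rank and not by gene, with positions on the Cavpor3.0 build. The strongest liver-only region, DS562921.1:1864162-1868731, had H3K4me1 folds of 17.97, 13.2 and 17.0 in livers 7, 8 and 9, in the top 1% of each list, and no heart peak. H3K27ac folds there were 14.4, 31.3 and 16.2 in liver, and no heart list had H3K27ac. The other 2 liver-only examples were DS562897.1:9646427-9649689, with folds of 17.4, 13.0 and 15.6, and DS562863.1:828922-829997, with folds of 19.9, 13.7 and 12.7. Both had H3K27ac in every liver and in no heart, and the second lay 0.32 kb from an H3K4me3 region while the first lay 44.57 kb from one.

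The strongest heart-only region, DS562867.1:17476337-17483885, had H3K4me1 folds of 14.0, 13.1 and 13.3 in hearts 7, 8 and 9 and H3K27ac folds of 13.5, 11.99 and 17.7. Liver of animal 7 also had H3K27ac there, at 7.07. DS562860.1:15879049-15885138 had folds of 14.1, 13.2 and 11.9 in heart and none in liver, yet all 3 livers had H3K27ac, at 3.55, 2.60 and 9.60 against 23.1, 9.95 and 17.7 in heart. DS563105.1:561366-565780, with folds of 13.5, 10.7 and 11.5 in heart, had H3K27ac in all hearts and in liver of animal 7. Each of the 3 heart-only examples thus had acetylation in at least 1 liver, whereas the 3 liver-only examples had none in heart. These are 6 regions picked for strength, and the shares over all regions of each class are those given above. The liver H3K27ac lists covered more bases than the heart ones, and the part of this in the examples was not tested.

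The 3 both-tissue examples were long joined stretches that H3K27ac and H3K4me3 peaks touched in all 6 lists of each mark. The highest fold of any peak in a joined region was used, and the part of this rule in their length was not tested. DS562908.1:10774444-10799125 spanned 24682 bases, of which the peaks of a single list covered 5208 to 9345. It had folds of 24.2, 12.6 and 16.9 in liver and 13.7, 23.5 and 15.3 in heart, and H3K4me3 folds of 54.7 to 134 in liver and 122 to 175 in heart. DS562875.1:14205227-14235591 was 30365 bases long, and the widths of its peaks added up to 30112, 23565 and 7173 bases in livers 7, 8 and 9 and to 6245, 5830 and 4839 in hearts. DS562865.1:49218706-49251630 had folds of 12.5 to 17.0 in liver and 13.1 to 15.9 in heart with weaker H3K4me3, at 7.42 to 12.8 and 15.9 to 31.9. The longest region of all, DS562873.1:39838503-39890911, spanned 52409 bases and held 1 peak of 50542 bases in liver of animal 7. Peaks covered 43354 and 32423 bases of it in the other livers and 18476, 10679 and 10134 bases in the hearts, so at this locus every liver domain was the wider one.

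Regions ranked differently showed the contrast within a shared site. DS562865.1:12948747-12957840 had folds of 19.5, 14.6 and 10.0 in liver over 4619 to 5895 bases, and of 4.24, 4.09 and 4.42 in heart over 254 to 912 bases (limma adjusted p = 4.2e-04 across 20354 regions). All livers but only heart 7 had H3K27ac there. DS562872.1:36115918-36121283 was the reverse, with folds of 4.21, 3.31 and 3.0 in liver and 13.5, 11.5 and 14.1 in heart (limma adjusted p = 8.8e-05), and H3K27ac folds of 2.80 to 5.61 in liver and 11.3 to 12.9 in heart. At DS562867.1:18182740-18188812 H3K4me1 was strong in heart, at 18.1, 15.8 and 14.1 against 6.00, 4.54 and 4.61, and H3K4me3 was found in all hearts and no liver.

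H3K4me3 did not always go with the stronger H3K4me1. At DS562875.1:19284948-19292802 H3K4me1 folds were 21.2, 16.6 and 17.4 in liver and 5.32, 6.93 and 6.71 in heart, whereas H3K4me3 was found in the 3 hearts, at 7.74 to 12.3, and in no liver. H3K27ac folds there were 37.6, 15.3 and 12.7 in liver and 37.3, 38.9 and 26.6 in heart. At DS563050.1:268844-272788 H3K4me1 was at 17.8, 13.5 and 14.1 in liver and 4.46, 4.18 and 5.89 in heart, with H3K27ac in all 6 lists, at 24.7 to 28.6 and 11.3 to 12.7. DS562908.1:10964920-10967916, ranked higher in heart, had folds of 7.5, 4.00 and 4.25 in liver and 16.8, 15.5 and 14.2 in heart and lay on the same scaffold as the first both-tissue example.

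Regions of 1 tissue were joined into groups where gaps were at most 12.5 kb. Regions of the other classes were not joined in this way, so the counts do not show whether such grouping is particular to tissue-restricted regions. The liver-only regions formed 21878 groups, with 26.9% of regions alone and 1847 groups of 5 or more that held 29.8% of them. The heart-only regions formed 13342 groups, with 30.1% alone and 1023 groups of 5 or more that held 29.9%. The largest groups had 31 regions in liver and 91 in heart, among 47 and 182 regions of any class over the same stretches.

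The largest heart group, DS562950.1:5138945-5449493, ran over 310.5 kb. It held 118, 127 and 145 H3K4me1 peaks in hearts 7, 8 and 9 and 7, 6 and 5 in livers, and 43 of its 91 regions had H3K27ac in heart. Over all heart-only regions, 45.0% overlapped H3K27ac in at least 2 heart lists. The next, DS562865.1:39291825-39399534, ran over 107.7 kb with 48, 49 and 60 heart peaks and 1, 0 and 0 liver peaks. H3K4me3 was listed 1 to 4 times per heart in the first and 0 times in the second. Whether these counts are low for stretches of such length was not tested.

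The largest liver group, DS562922.1:5126521-5287138, ran over 160.6 kb with 55, 54 and 48 liver peaks and 0, 5 and 4 heart peaks, and 22 of its 31 regions had H3K27ac in liver. Over all liver-only regions, 53.1% overlapped H3K27ac in at least 2 liver lists. H3K27ac was listed there 35, 28 and 44 times in liver and 6, 6 and 7 times in heart. DS562864.1:41244155-41339777 ran over 95.6 kb with 41, 43 and 45 liver peaks and none in any heart. H3K27ac was listed there 36, 42 and 23 times in liver and 0 times in each heart, and H3K4me3 2 to 3 times in liver and 0 times in heart. All 3 marks were therefore listed in liver alone over this stretch.

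Lists of the other 2 marks from the same animals showed where H3K4me1 stood. In liver 39.6% ± 3.97 of H3K4me1 peaks, 41.4% ± 1.501 of H3K27ac peaks and 86.9% ± 3.64 of H3K4me3 peaks lay in both-tissue regions of their own mark (SD, n = 3 each). In heart the shares were 50.4% ± 6.89, 49.6% ± 4.35 and 64.5% ± 3.07. H3K4me1 lay below H3K4me3 in both organs without overlap (two-sided exact permutation p = 0.1, the smallest possible, adjusted p = 0.2 over 4 comparisons). Against H3K27ac it differed by −1.80 points in liver and 0.80 points in heart (exact permutation p = 0.6 and 0.9), both within the spread of lists. The lists are of unequal length. With the 14782 peaks of highest −log10 q from each of the 18 guinea pig lists, the H3K4me1 share was 21.1% ± 1.90 in liver and 24.8% ± 1.06 in heart, against 59.6% ± 1.27 and 64.3% ± 1.99 for H3K27ac. H3K4me1 then lay below both other marks in both organs without overlap (exact permutation p = 0.1 each). The cut kept unlike fractions of the lists. It kept all of the shortest list, H3K4me3 in liver of animal 9, while the full H3K4me1 lists held 90479 to 136264 peaks. With regions built from the full lists, 60.5% (liver) and 76.1% (heart) of the highest decile of H3K4me1 peaks lay in both-tissue regions. The comparison at 14782 peaks therefore cannot tell the mark from the depth of the cut.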

How the data were processed

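Chromatin immunoprecipitation libraries of 3 animals, 2 tissues and 3 histone marks (18 lists) were used; the 98 lists of other species were not used here. The authors deposited 1 peak list per library, named with its input library and the Cavpor3.0 build per the file names; MACS2 is named in the submitters' processing notes. Versions, settings and the aligner: not given in the sources used here. Fold enrichment, as deposited, is a linear ratio of signal to background. The −log10 p-value and −log10 q-value of each peak were deposited as the caller wrote them; among H3K4me1 lists −log10 q started at 1.30. The deposited score is 10 times the −log10 q, cut to a whole number, and was not used further. Read depth is unknown, and no count of reads, interval or floor can be given.

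Intervals were merged where at least 1 base overlapped. Where a library had several peaks in a region the highest fold was taken. Differences between libraries used exact permutation or sign-flip tests; ranks of fold used limma 3.58.1 in R 4.3.3 (trended variance, threshold 0.05), tested on simulated data. Other steps ran in Python 3.11.15 (SciPy 1.17.1, NumPy 2.4.6, pandas 2.3.3), and plots in Matplotlib 3.10.9. Numbers 7, 8 and 9 name the same animals in both tissues, so they pair the libraries. The 6 H3K4me1 lists differ from each other, and the highest Jaccard index of 2 lists was 0.602. Libraries of a tissue come from separate animals.

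Named regions were the 3 liver-only, 3 heart-only and 3 both-tissue regions with the highest lowest percentile of fold over their libraries, the 3 with the lowest adjusted p in each direction, the longest region, and the 2 groups with most regions per tissue. The libraries and measures were chosen with earlier results of these data known, and the promoter, decile and top-decile values, the rank correlations and the summit rule for H3K27ac were added after the data were seen. Gene lists and cell type markers set for an annotated build were not used, since no annotation was used here. Alternatives tried were a −log10 q of at least 4, equal numbers of peaks, 500-base windows centred on the summit, centred log2 fold, overlap of 50% of the shorter interval, scaffolds with a peak beyond 1 Mb, each library left out and the replicate block. For 1 sample of the series the labels disagree, and it was left without a group.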

Additional observations from a re-analysis of the deposited data

How the results depend on the processing

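Recomputed values numbered 190 over 23 results, and 1 changed sign. The permutation and sign-flip tests cannot reach the threshold with 3 animals, so staying on its side says nothing about stability, and sizes are given instead. The heart-only count came to 15932 with the stricter −log10 q of 4 and 16596 to 31795 with each library left out. Regions ranked higher in liver and in heart numbered 221 and 377 at a −log10 q of at least 4, 223 and 353 with 90479 peaks per list, and 209 and 308 with summit windows, each over fewer regions tested. With each library left out they ranged from 272 to 458 and from 543 to 697. With centred log2 fold they were 682 and 1037. The share of heart H3K4me1 peaks in both-tissue regions minus that of H3K27ac changed from 0.80 to −39.5 with 14782 peaks per list, and in liver from −1.80 to −38.5; the cause was not tested. Against H3K4me3 the heart difference went from −14.1 to −58.7. The gap in H3K27ac between both-tissue and 1-tissue peaks ran from 3.38 to 8.46 points in heart and from 3.68 to 9.41 in liver with each library left out, and was 1.23 in liver by summits. Paired by animal (the replicate block), the sign-flip p was 0.5 for peak number and for the both-tissue share (0.26 and −10.7), and 0.25, the smallest 3 animals allow, for bases covered (0.77), median width (165.5 bases) and promoters with H3K4me1 (21.3 points). None of these tests can make a call at 0.05. In limma the block gave 742 and 989 regions. The peak number difference became 0.66 with the stricter q and ran from 0.13 to 0.40 with each library left out. Leaving out each library gave 0.253 to 0.368 for the Jaccard separation and −15.9 to −7.32 points for the both-tissue share. Depth of sequencing limits the number, width and q of weak peaks and could not be read from these lists.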
